A study of Homo sapiens with 6 samples.

Results

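Ceruloplasmin and the genes by which cells take up, store, export and sense iron were examined in T24 cells, a line established from a human bladder cancer. The group holds 10 of the 23152 genes in the deposited table, which are CP (ceruloplasmin), HEPH, TFRC, SLC11A2, SLC39A14, FTH1, FTL, SLC40A1, ACO1 and IREB2. CP was chosen because its fall was the largest in these samples among well-counted genes, so its values are described here without a test. The other 9 were named for their place in iron handling, with earlier results of the same samples known. RNA was sequenced from 3 samples of T24 cells carrying the empty vector (vector) and 3 samples overexpressing RNF112 (oeRNF112), a RING-type E3 ubiquitin ligase. The study asked by which downstream route RNF112 affects bladder cancer cells. Both groups are the same cell line, so they show how T24 cells in culture respond, and the treatment text of the labels names siRNA transfection, whereas the study's methods describe plasmids for overexpression. Nothing in the labels says whether the samples of a group were separate cultures, so each p-value measures the spread between these samples.

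Iron circulates bound to transferrin and enters cells through the transferrin receptor, encoded by TFRC. Inside the cell it is stored in ferritin, a shell of heavy (FTH1) and light (FTL) chains, and it leaves through ferroportin (SLC40A1). Ceruloplasmin and hephaestin are copper-carrying ferroxidases, which oxidize the exported iron so that transferrin can bind it. The iron-regulatory proteins encoded by ACO1 and IREB2 bind hairpins called iron-responsive elements when iron is scarce. Binding near the start of a transcript blocks its translation, which a read count does not show, and binding in the tail of the TFRC transcript protects that RNA from decay.

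The hairpins are shown because they divide the members by the way the regulators act on them. Untranslated regions of protein-coding transcripts (GENCODE release 29, GRCh38) were searched for a C, 5 bases, CAGUG, a base other than G, and 5 further bases, where the 2 runs of 5 bases pair in every place and G-U pairs are allowed. Of 19669 genes searched, 130 (0.661%) held such a match, 26 in a 5′ and 104 in a 3′ untranslated region. Among the 10 members, 4 held it. In the sequences below, each written 5′ to 3′ from the bulged C, capitals mark the loop of 6 bases.
FTH1: cuucaaCAGUGCuugga
FTL: cuucaaCAGUGUuugga
SLC40A1: cagcuaCAGUGUuagcu
TFRC element nearest the stop codon: cggaagCAGUGCcuucc
TFRC following element: cgggagCAGUGUcuucc
TFRC next element: cggagaCAGUGAucucc
TFRC element nearest the tail: cgggaaCAGUGUuuccc
The FTH1 element lies in the 5′ untranslated region at chr11:61967580-61967596 on the minus strand, the FTL element at chr19:48965341-48965357 on the plus strand, and the SLC40A1 element at chr2:189580667-189580683 on the minus strand. The FTH1 and FTL elements were the same at 16 positions and differed by C12U, counted from 1 at the bulged C. TFRC held 4 matches, all in its 3′ untranslated region, between chr3:196050469-196050485 and chr3:196050985-196051001 on the minus strand. SLC11A2, for which an iron-responsive element is also known, gave no match to this strict form, which says only that these letters with full pairing were absent from the windows searched.

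The libraries held between 40029547 and 41259569 counted reads. RNF112 had 27, 19 and 24 counts in vector and 29753, 36963 and 31712 in oeRNF112, as the labels say, and reads from the introduced plasmid may be among them. Of 14467 genes tested with edgeR's quasi-likelihood test, 18.1% differed between the groups at an adjusted p under 0.05, 9.97% higher and 8.14% lower in oeRNF112. The TMM factors, edgeR's scaling for composition, gave 1442 higher and 1178 lower genes, and scaling by library totals alone gave 2020 and 659. Urothelial markers summed to 3580 to 4450 CPM (counts scaled to library size) in vector and 2930 to 3380 CPM in oeRNF112. Among them KRT7, KRT18 and FOXA1 fell by 0.48, 0.51 and 1.08 on the log2 scale and EPCAM rose by 0.84 (edgeR adjusted p = 0.0226, 0.013, 0.00132 and 0.0208), whereas KRT20, UPK2, UPK3A and TP63 had at most 7 counts in any sample. The mesenchymal markers VIM, CDH2, FN1 and ZEB1 summed to between 5680 and 6070 CPM in vector and between 4910 and 5540 CPM in oeRNF112, and CDH2 fell by 0.44 (edgeR adjusted p = 0.0252). All 7 hepatocyte markers in the table had at most 6 counts in any sample. Macrophage and leukocyte markers summed to between 9.32 and 10.5 CPM in vector and to 11.2, 5.60 and 6.09 CPM in oeRNF112, where replicate 1 had 97 counts of LYZ against at most 8 in every other sample. All 4 tested markers of this list had log2 fold changes below 0, as had 7173 of the 14467 genes tested. LAPTM5, with 293, 258 and 231 counts in vector and 215, 108 and 125 in oeRNF112, fell by 0.88 (edgeR adjusted p = 0.0308). It was the 1 called of the 4 (25%, against 18.1% of all genes), and PTPRC was at -0.74 (edgeR adjusted p = 0.104). Too low to be tested, CSF1R, ITGAM, CD163 and CD3E lay the other way. They had 5, 7, 1 and 0 counts summed over vector and 19, 21, 4 and 4 over oeRNF112. The part of these markers in the results below was not tested. All samples are the same cell line, and in bulk RNA fewer cells with a transcript and less of it per cell cannot be told apart.

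CP lies on the minus strand at chr3:149162410-149222055 (GRCh38) and encodes the ferroxidase that the liver secretes into plasma and that many other cells make in smaller amounts. Its counts were 313, 371 and 250 in vector against 18, 7 and 9 in oeRNF112. In RPKM, which scales counts by gene length and library size, this was 1.41 ± 0.273 in vector and 0.0519 ± 0.0272 in oeRNF112 (SD, n = 3 each). Every oeRNF112 sample lay far below every vector sample, and the transcript was close to lost. The log2 fold change was -4.84 (standard error 0.293), so oeRNF112 held 3.49% of the vector level. Among genes lower in oeRNF112 with no overlap between the groups and a mean count of at least 10, CP came ahead of KLHL14 (-4.56) and SLC47A2 (-4.11), whose counts were smaller. In the fits with 1 sample removed, the log2 fold change of CP was between -5.34, without oeRNF112 replicate 1, and -4.59, without oeRNF112 replicate 2. As CP was chosen for its fall, this range is description only. On the log2(RPKM + 1) scale the difference was -1.19, since the added 1 is close to the level of CP itself.

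CP overlaps HPS3, which encodes a subunit of a complex that builds lysosome-related organelles, over 11323 bases on the opposite strand. The library kit was a stranded one per the labels, but the strand setting of the counting is not given in the sources used here. HPS3 had 3452, 3634 and 3021 counts in vector and 4143, 4490 and 4834 in oeRNF112. It rose by 0.34 in log2 (standard error 0.0933, edgeR adjusted p = 0.0344). Of the 27 other annotated genes that start within 500 kb of CP, 9 were in the table and 5 were tested. All 5 had log2 fold changes above 0, as had 7294 of the 14467 genes tested. With 5 genes, a shared direction is not read as a result about the region. TM4SF1, a tetraspanin-like surface protein 155.8 kb away, rose by 0.35 (edgeR adjusted p = 0.0486) and had 7953, 6969 and 7757 counts in vector and 9709, 11451 and 9380 in oeRNF112. HPS3 was called without vector replicate 2 but in none of the 5 other fits that left out 1 sample, with log2 fold changes of 0.28 to 0.39 and adjusted p of 0.0659 to 0.123. TM4SF1 was called without oeRNF112 replicate 3 only (0.26 to 0.40, adjusted p of 0.0687 to 0.12 in the 5 others), and its call was also lost with DESeq2's size factors in edgeR (0.35, adjusted p = 0.0519). HLTF, a DNA helicase gene 135.5 kb away, was at 0.37 (edgeR adjusted p = 0.0641), and GYG1, which starts glycogen synthesis, was at 0.06 (edgeR adjusted p = 0.723). WWTR1-AS1, with 10, 16 and 11 counts in vector and 19, 17 and 8 in oeRNF112, was at 0.17 (edgeR adjusted p = 0.817).

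HEPH, the membrane-bound relative of ceruloplasmin in gut cells, was next to undetected, with 0, 0 and 0 counts in vector and 1, 0 and 0 in oeRNF112. A count of 0 allows up to 3 reads here, or an RPKM of 0.0111 to 0.0115, and covers counting error only. Its relative HEPHL1 had 0, 1 and 1 counts in vector and 2, 0 and 4 in oeRNF112. Neither passed the filter on low counts. In vector, CP was thus the only transcript of this family at a level that could be compared, with 934 reads over the 3 samples.

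**Figure D1:**
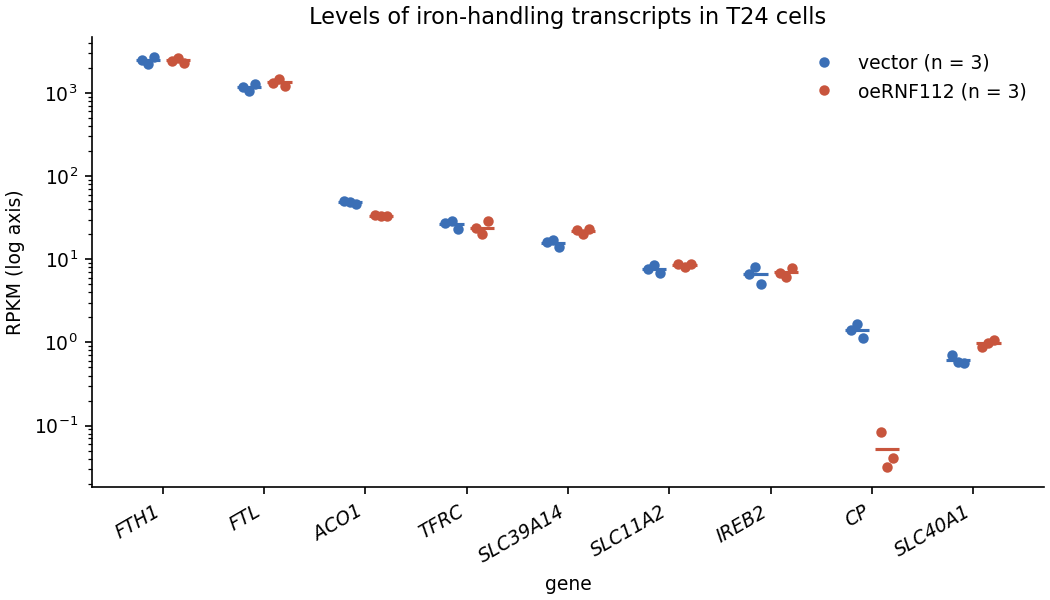
RPKM on a log axis for 9 iron-handling genes, ordered by their vector mean, with 3 vector samples (blue) and 3 oeRNF112 samples (red) as points and group means as lines. FTH1 and FTL lie at the top with vector means of 2461 and 1183 RPKM, CP drops from 1.41 to 0.0519 RPKM between the group means, and HEPH is left out because 5 of its 6 values are 0.

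The levels of the members differed widely, as the plot of RPKM by gene shows for all but HEPH. In vector, FTH1 had 2461 ± 235 RPKM and FTL 1183 ± 116 RPKM (SD, n = 3), above 99.9% and 99.8% of all genes. ACO1 followed at 48.8 ± 2.01 RPKM, TFRC at 26.3 ± 2.84 RPKM and SLC39A14 at 15.7 ± 1.44 RPKM. SLC11A2 and IREB2, at 7.60 ± 0.804 and 6.57 ± 1.45 RPKM, were the only neighbours in this order whose vector samples overlapped. CP stood above SLC40A1 in every vector sample (SLC40A1 at 0.617 ± 0.0709 RPKM) and below it in every oeRNF112 sample.

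Among the 9 members other than CP, 8 were tested, of which ACO1 was lower and SLC39A14 higher in oeRNF112 (25.0% called, against 18.1% of all genes tested). Their median log2 fold change was 0.03, against 0.003 over all genes. Groups without overlap were seen for 3 of the 8, against 36.8% of all genes. With 8 genes, these shares are near those of the whole table.

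ACO1 encodes the iron-regulatory protein that serves as cytosolic aconitase while it carries an iron-sulfur cluster and binds iron-responsive elements without it, and lies at chr9:32384603-32454769. It had 15785, 15071 and 14219 counts in vector and 10289, 10196 and 10024 in oeRNF112. The samples of each group lay close together and the groups were far apart. ACO1 fell by 0.64 in log2 (standard error 0.0802, edgeR adjusted p = 0.000931), to 0.641 of the vector level, and this call was kept in all 14 alternative fits. IREB2, the regulator that is removed by degradation when iron is plentiful, had 2803, 3288 and 2084 counts in vector and 2796, 2559 and 3217 in oeRNF112. Its groups overlapped, with a log2 fold change of -0.01 and a 95% interval from -0.33 to 0.31 (edgeR adjusted p = 0.971). The interval leaves room for a change in either direction, and the sign turned with library totals (0.08).

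**Figure D2:**
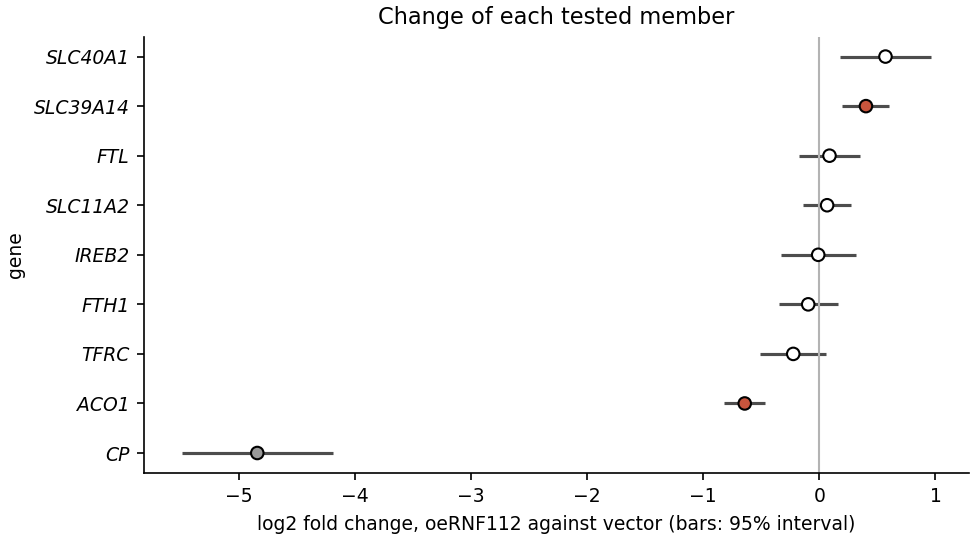
Log2 fold change of oeRNF112 against vector for the 9 members that were tested, with 95% intervals from the edgeR fit as bars; red points have an adjusted p under 0.05, white points do not, and CP (grey) was chosen for its change and is not tested. ACO1 lies at -0.64 and SLC39A14 at 0.40, and the intervals of TFRC, FTH1, FTL, SLC11A2 and IREB2 include 0.

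SLC39A14 encodes ZIP14, a transporter that carries zinc, manganese and iron not bound to transferrin into cells, and lies on chromosome 8. It had 4144, 4314 and 3580 counts in vector and 5715, 5195 and 5891 in oeRNF112. The lowest oeRNF112 count exceeded the highest vector count. SLC39A14 rose by 0.40 in log2 (standard error 0.0908, edgeR adjusted p = 0.0151). The call was lost without vector replicate 1, oeRNF112 replicate 1 or oeRNF112 replicate 3, where the log2 fold change was between 0.38 and 0.43 and the adjusted p between 0.0541 and 0.0729. Over all 14 alternatives the adjusted p was between 0.00214 and 0.118.

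TFRC had 8219, 8633 and 6933 counts in vector and 6951, 5963 and 8617 in oeRNF112. The groups overlapped, since the highest oeRNF112 sample lay beside the vector samples. The log2 fold change was -0.22, with a 95% interval from -0.51 to 0.06 (edgeR adjusted p = 0.247). SLC11A2, which encodes the transporter DMT1 that moves ferrous iron out of endosomes, had 2487, 2719 and 2192 counts in vector and 2767, 2583 and 2837 in oeRNF112. It was at 0.07 on the log2 scale, with an interval from -0.14 to 0.28 (edgeR adjusted p = 0.651). The intervals leave room for a change of TFRC or SLC11A2 of any size within them.

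SLC40A1 encodes ferroportin, the known iron exporter of mammalian cells, and lies at chr2:189560579-189583758. Its counts were low, at 104, 85 and 83 in vector and 127, 146 and 154 in oeRNF112. The groups did not overlap. The log2 fold change was 0.57 (standard error 0.177, 95% interval 0.18 to 0.96), and the edgeR adjusted p of 0.0505 missed the threshold. With library totals (0.0275), at least 10 counts in every sample (0.0484) and limma on log2(RPKM + 1) (0.046) the adjusted p passed it, and over all 14 alternatives it was between 0.0275 and 0.18.

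The ferritin transcripts were the most abundant of the group and together took between 0.359% and 0.446% of all counted reads. FTH1 had 122968, 107989 and 130366 counts in vector and 118055, 128497 and 111010 in oeRNF112. FTL had 42726, 37529 and 45547 counts in vector and 46110, 52205 and 43039 in oeRNF112. Both overlapped between the groups, with log2 fold changes of -0.10 for FTH1 (95% interval -0.35 to 0.16, edgeR adjusted p = 0.591) and 0.09 for FTL (95% interval -0.17 to 0.35, edgeR adjusted p = 0.636). Both genes have processed copies elsewhere in the genome, so reads may have been shared with these and the counts are uncertain to that extent.

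The balance of the 2 chains varied less between samples than either level. The ratio of FTH1 to FTL RPKM was 2.08, 2.08 and 2.07 in vector against 1.85, 1.78 and 1.87 in oeRNF112. The groups did not overlap, and the difference between the means, 2.08 ± 0.0065 and 1.83 ± 0.0458 (SD, n = 3 each), was larger than the spread within either group. A ratio within a sample does not depend on the scaling of the library, and it does not say which chain moved. Neither chain passed the test by itself, and this ratio was added after the counts had been seen and was not tested.

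**Figure D3:**
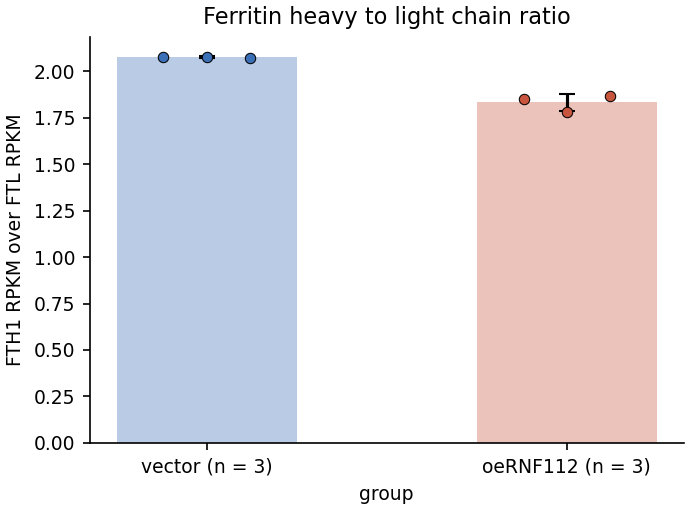
FTH1 RPKM over FTL RPKM in 3 vector samples (blue) and 3 oeRNF112 samples (red), with bars from 0 to the group mean, error bars of 1 SD and 1 point per sample. The vector samples sit between 2.07 and 2.08 and the oeRNF112 samples between 1.78 and 1.87.

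In 4 of the 6 samples, ferritin and the receptor deviated from their group means in opposite directions. FTH1 was highest in vector replicate 3 and oeRNF112 replicate 2 (0.148 and 0.129 above its group mean on the log2 scale), where TFRC was lowest (-0.158 and -0.232). In vector replicate 2 and oeRNF112 replicate 3, FTH1 was at -0.176 and -0.124 and TFRC at 0.106 and 0.255. Transcript length moved with this pattern. The median of the 1660 tested genes with a length under 1500 bases was 0.141 and 0.15 in the former pair of samples and -0.164 and -0.137 in the latter, whereas the 5424 genes over 5000 bases had medians of -0.10 and -0.09 against 0.12 and 0.088. FTH1 and FTL are short (1203 and 871 bases) and TFRC and IREB2 are long (7395 and 10198 bases). The part of length in the spread of these genes was not tested.

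Beyond the members, 77 other genes of iron uptake, storage, sensing, iron-sulfur cluster assembly and heme metabolism were listed by role, of which 75 were in the table and 66 were tested. In oeRNF112, 10 rose and 6 fell, or 24.2% called against 18.1% of all genes (9.97% higher and 8.14% lower), and the median log2 fold change was -0.065 against 0.003. The groups were apart for 37.9% of them, against 36.8%. Of the 16 calls, those of STEAP1, FDXR, FECH, HMOX1 and EPAS1 were kept in every alternative, and 10 were lost in at least 1. No called gene changed sign. BMP6 and HPX passed the filter on low counts only through oeRNF112, where they were higher, so their calls are not read as results. Without them 14 of 64 tested genes were called (21.9%), 8 higher and 6 lower. With BMP6 still counted, the list held 7 calls without vector replicate 1 or without oeRNF112 replicate 3. It held 8 without oeRNF112 replicate 1 and 10 without vector replicate 3.

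Of 8 tested genes of uptake and ferrireduction, 3 rose (37.5%, against 18.1% of all genes called and 9.97% called higher). STEAP1, a member of a family of membrane proteins that includes iron and copper reductases, had 560, 507 and 582 counts in vector and 916, 1064 and 889 in oeRNF112, with a log2 fold change of 0.72 (standard error 0.118, edgeR adjusted p = 0.0034). STEAP2, a reductase of the same family, was at 0.71 (edgeR adjusted p = 0.0252). LCN2, lipocalin that binds bacterial iron chelators, had 139, 132 and 200 counts in vector and 263, 292 and 307 in oeRNF112, and rose by 0.79 (edgeR adjusted p = 0.0172). In all 3 genes every oeRNF112 sample lay above every vector sample. The call of STEAP2 was lost without vector replicates 1 or 3 or oeRNF112 replicates 1 or 3 (log2 fold change 0.58 to 0.71, adjusted p 0.0687 to 0.114) and with limma on log2(RPKM + 1) and log2(RPKM + 0.1) (adjusted p 0.0901 and 0.0959), and that of LCN2 without vector replicate 1 or oeRNF112 replicate 3 (0.72 to 0.75, adjusted p 0.0501 to 0.0767). The most abundant genes of this role, MELTF (42.4 RPKM in vector) and CYBRD1 (27.8 RPKM in vector), were at -0.03 and -0.16 and were not called.

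No storage or chaperone gene was called by edgeR among the 4 tested, with 0 at an unadjusted p under 0.05 and 0 called by DESeq2 or limma. PCBP1 and PCBP2, which hand iron to ferritin, were at -0.10 and -0.19 on the log2 scale (95% intervals -0.28 to 0.08 and -0.38 to 0.01), and NCOA4, the receptor that delivers ferritin to lysosomes, was at -0.16. The groups of PCBP1 and PCBP2 did not overlap, which makes 2 of the 4, against 36.8% of all genes. BOLA2, which has a near-identical copy, had at most 2 counts in any sample.

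In the hepcidin axis, HAMP itself, the liver hormone hepcidin that removes ferroportin from the surface, had 1 count in 1 of 6 samples. BMP6, the ligand through which liver endothelium signals iron load, had 15, 8 and 16 counts in vector and 90, 103 and 96 in oeRNF112. Vector replicate 2 lay under the filter on low counts, so these counts are given without a fold or a p. HFE, an MHC-like partner of the transferrin receptors, fell by 0.49 (standard error 0.116, edgeR adjusted p = 0.0185), and lost its call without vector replicate 1 or oeRNF112 replicate 3 (-0.49 and -0.43, adjusted p 0.0696 to 0.078) and with limma on either scale (adjusted p 0.117 and 0.138). FBXL5, which marks the IREB2 protein for degradation, was at -0.09 and NEO1 at 0.01, and neither was called.

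**Figure D4:**
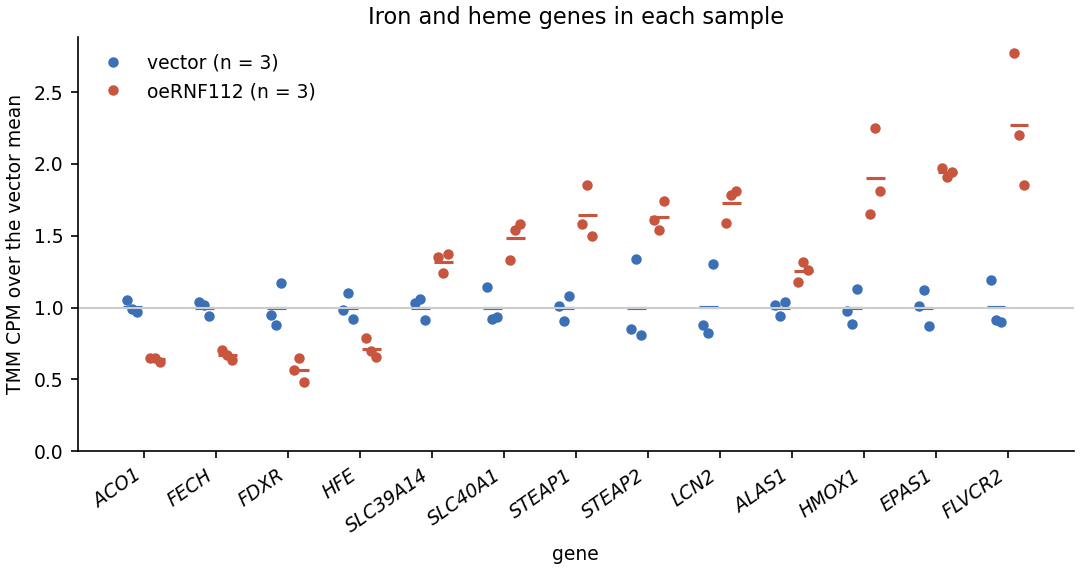
TMM-scaled CPM of 13 iron and heme genes divided by the vector mean, on a linear axis from 0, with 1 point per sample, 3 vector samples in blue and 3 oeRNF112 samples in red, and lines at the group means. ACO1 sits between 0.621 and 0.651 and EPAS1 between 1.91 and 1.97 in oeRNF112, and SLC40A1 is included although its adjusted p was 0.0505.

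Of 8 tested genes of heme synthesis 1 rose and 1 fell (25%, against 18.1% of all genes). Of 10 tested genes of heme breakdown and transport 3 were called higher (30%), or 2 of 9 (22.2%) without HPX. HMOX1, the enzyme that opens heme and sets its iron free, had 1151, 1054 and 1302 counts in vector and 2039, 2744 and 2273 in oeRNF112. It rose by 0.93 in log2 (standard error 0.135, edgeR adjusted p = 0.00195), and every oeRNF112 sample lay well above every vector sample. FECH, the mitochondrial enzyme that inserts iron into heme in the last step of synthesis, had 2523, 2498 and 2225 counts in vector and 1793, 1683 and 1644 in oeRNF112. It fell by 0.58 (standard error 0.0896, edgeR adjusted p = 0.00262), with no overlap. ALAS1, the enzyme of the opening step of heme synthesis, rose by 0.32 (edgeR adjusted p = 0.0301), but was called in 1 of the 6 fits that left out a sample, that without vector replicate 3, with log2 fold changes of 0.28 to 0.37 and adjusted p of 0.0598 to 0.0914 in the 5 others. UROD, the most abundant gene of heme synthesis (112 RPKM in vector), was at -0.32 and was not called (edgeR adjusted p = 0.113).

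FLVCR2, a transporter of the heme and choline carrier family, had 27, 21 and 20 counts in vector and 66, 52 and 45 in oeRNF112. It rose by 1.18 on the log2 scale (edgeR adjusted p = 0.02), a call lost without vector replicate 3 or oeRNF112 replicate 1 (1.01 to 1.11, adjusted p 0.0589 to 0.0913). HPX, the plasma protein hemopexin that carries free heme, had 2, 4 and 1 counts in vector and 15, 11 and 10 in oeRNF112. All 3 vector samples lay under the filter on low counts, so these counts are given without a fold or a p. The abundant genes PGRMC1 and BLVRA, a heme-binding membrane protein and biliverdin reductase, were at -0.003 and 0.02.

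Of 19 tested genes of mitochondrial iron import and iron-sulfur cluster assembly 1 rose and 2 fell (15.8%), and of 9 tested genes of cytosolic assembly 2 fell (22.2%), against 18.1% of all genes. FDXR, which passes electrons to the ferredoxins used in cluster assembly and steroid synthesis, had 1486, 1398 and 1799 counts in vector and 930, 1054 and 808 in oeRNF112. It fell by 0.83 in log2 (standard error 0.14, edgeR adjusted p = 0.00397). IBA57 and NUBP1, a mitochondrial and a cytosolic assembly factor, fell by 0.60 and 0.47 (edgeR adjusted p = 0.0195 and 0.0208), and MMS19, which delivers clusters to DNA enzymes, fell by 0.28 (edgeR adjusted p = 0.0342). SLC25A37, mitoferrin, which brings iron into mitochondria, had 4196, 5347 and 4448 counts in vector and 7368, 5876 and 7183 in oeRNF112 and rose by 0.47 (edgeR adjusted p = 0.0211). The call of MMS19 was lost whichever sample was left out (-0.30 to -0.26, adjusted p 0.0504 to 0.119), and those of SLC25A37 (0.40 to 0.45) and NUBP1 (-0.52 to -0.40) without vector replicates 1 or 3 or oeRNF112 replicates 1 or 3. That of IBA57 was lost without vector replicate 1 or oeRNF112 replicates 1 or 3 (-0.65 to -0.51). All 4 calls were also lost with limma on either scale, with adjusted p between 0.054 and 0.175, and that of MMS19 with library totals and with no filter on low counts. The abundant assembly genes GLRX5, BOLA3 and CIAO2B were at -0.14, 0.07 and 0.08, and CIAPIN1 at -0.30, none of them called.

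**Figure D5:**
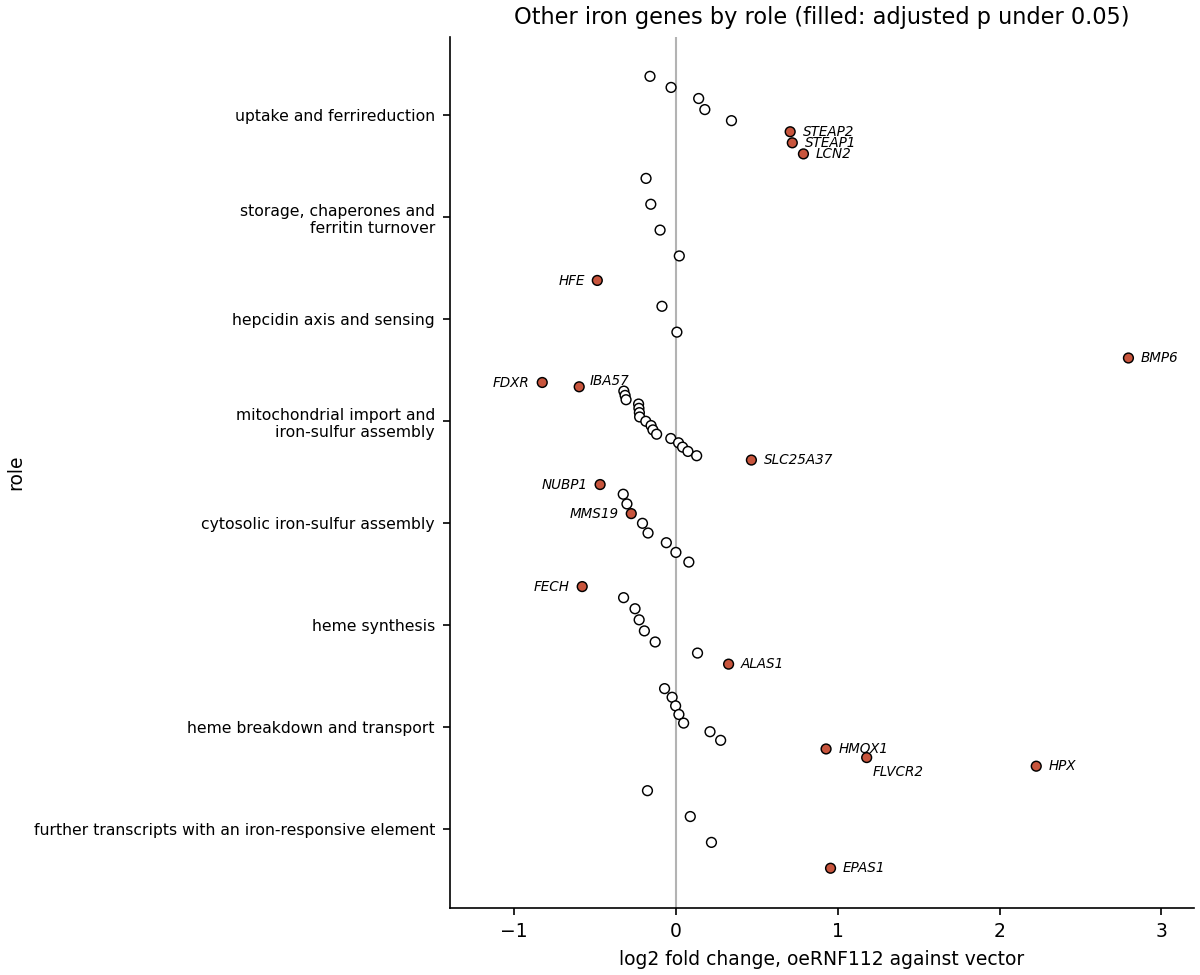
Log2 fold change of oeRNF112 against vector for 66 tested iron genes outside the 10 members, grouped by role, where filled points have an adjusted p under 0.05 and carry their name. The 16 filled points include HMOX1 at 0.93, FECH at -0.58 and FDXR at -0.83. BMP6 and HPX, also filled, passed the filter on low counts only through oeRNF112, and their calls are not read as results.

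EPAS1 encodes the hypoxia-inducible factor HIF-2α, whose transcript carries an iron-responsive element and whose protein is marked for degradation by iron-dependent enzymes. It had 3604, 4026 and 3019 counts in vector and 7342, 7068 and 7384 in oeRNF112. The oeRNF112 samples lay within a narrow band far above the vector samples, and EPAS1 rose by 0.95 in log2 (standard error 0.101, edgeR adjusted p = 0.000411).

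Ceruloplasmin is loaded with copper in the secretory pathway, so 12 genes of copper uptake and delivery were examined, of which 2 rose by edgeR's test (16.7% called, against 18.1% of all genes). ATP7B, the pump that loads copper onto ceruloplasmin in liver cells, had 356, 452 and 391 counts in vector and 725, 595 and 867 in oeRNF112. It rose by 0.79 in log2 (standard error 0.147, edgeR adjusted p = 0.00654). SLC31A2, a copper transporter of inner membranes, had 370, 386 and 395 counts in vector and 571, 609 and 578 in oeRNF112, and rose by 0.53 (edgeR adjusted p = 0.00881). The groups did not overlap for either gene, which held for 4 of the 12 genes, against 36.8% of all genes. SLC31A1, the copper importer of the cell surface, was at 0.23 (edgeR adjusted p = 0.085), and ATP7A, the relative of ATP7B, at 0.29 (edgeR adjusted p = 0.31). The most abundant genes of the list, SOD1 (superoxide dismutase, 257.7 RPKM in vector) and ATOX1 (a copper chaperone, 89.2 RPKM in vector), were at -0.25 and 0.12 and were not called. The call of ATP7B was lost with limma on log2(RPKM + 1) and log2(RPKM + 0.1) (adjusted p 0.057 and 0.0577). Without vector replicate 2, 5 copper genes were called, 3 higher and 2 lower.

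Ceruloplasmin is also an acute-phase protein, made in larger amounts by the liver during inflammation. Of 14 such proteins listed, 10 were in the table and 5 were tested, and 2 of these fell (40%, against 18.1% of all genes called and 8.14% called lower). ITIH4 passed the filter on low counts only through oeRNF112, and without it 2 of 4 fell (50%). SERPINA1, the antitrypsin gene, had 6157, 5378 and 5801 counts in vector and 4297, 4022 and 3520 in oeRNF112 and fell by 0.63 in log2 (standard error 0.105, edgeR adjusted p = 0.00359). SERPINA3, the antichymotrypsin gene, had 59, 53 and 50 counts in vector and 20, 11 and 18 in oeRNF112 and fell by 1.80 (standard error 0.301, edgeR adjusted p = 0.00375). Both calls were kept in all 14 alternatives. SAA1, a serum amyloid gene that shares reads with a near-identical neighbour, had 81, 78 and 89 counts in vector and 32, 66 and 46 in oeRNF112, at -0.86 (edgeR adjusted p = 0.0565). C3, a complement component, was at -0.23 (edgeR adjusted p = 0.19). ITIH4, an inhibitor heavy chain, lay the other way, with 3, 13 and 17 counts in vector and 24, 12 and 30 in oeRNF112. The groups of ITIH4 overlapped, and its counts are given without a fold or a p.

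Translation of the ceruloplasmin transcript can be silenced by a complex of the proteins of EPRS1, RPL13A, SYNCRIP and GAPDH. RPL13A fell by 0.51 on the log2 scale (edgeR adjusted p = 0.0335), and lost its call without vector replicates 1 or 3 or oeRNF112 replicates 1 or 3 (-0.51 to -0.39, adjusted p 0.092 to 0.132) and with limma on either scale (adjusted p 0.25 and 0.254). EPRS1, SYNCRIP and GAPDH were at -0.12, -0.18 and -0.31 and were not called. RPL13A and GAPDH have many processed copies, so their counts are uncertain.

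Over the 6 samples, the genes most like CP by Pearson's r of log2(CPM + 1) among 12343 genes with a mean count of at least 50 were STAT6 (0.998), ITGB4 (0.998), PARVA (0.998), FRMD5 (0.998) and UNC119B (0.997). These values rest on 6 points in 2 separate groups. Each of the 5 genes was lower in every oeRNF112 sample, which follows from choosing them by their likeness to CP. ITGB4 had 1185, 1324 and 999 counts in vector and 490, 435 and 431 in oeRNF112. The log2 fold changes of the 5 genes were between -1.45 and -0.53. They are not set against that of CP, which was chosen for the largest fall.

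Promoters (RefSeq, GRCh38.p14, 250 bases before to 50 after the start) were found for 7 of the 10 members, with 13 windows in all, and were searched on both strands. CACGTG, the core site of c-Myc, was in none of them, against 7.26% of all promoters. TGACNNNGC, the core of the antioxidant element, and TTCNNNGAA, the core of the STAT site, were in none either, against 13.3% and 7.66%. CP, FTH1 and SLC39A14 were not among the 7. With 13 windows, several of them from HEPH and SLC11A2, the absence of these motifs is not read as a result about the members.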

How the data were processed

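RNA was sequenced from T24 cells in 2 groups of 3 samples, grouped by the labels. The authors deposited raw read counts for 23152 genes and RPKM values (counts scaled by gene length and by the counted reads of the library). The submitters' processing notes name Trimmomatic 0.36, featureCounts, Subread 1.5.1 and GRCh38; the aligner and annotation are not given in the sources used here. Counts were filtered with filterByExpr, scaled with TMM factors and tested with the quasi-likelihood test of edgeR 4.0.16 in R 4.3.3, two-sided, with Benjamini-Hochberg adjustment over 14467 genes and a threshold of 0.05. Standard errors are the log2 fold change over the square root of F. Libraries held at least 40029547 counted reads, so for all but low genes precision is set mostly by the 3 samples a group. RPKM values served for levels and ratios.

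Members and lists were chosen with earlier results of these data known. Named genes are all members, the called genes of each role (at most 4 by p, or 5 for copper and silencing genes), the 2 most abundant genes of a role, and the 5 genes most like CP. NCOA4, SLC31A1, ATP7A, HLTF, GYG1, KLHL14, SLC47A2, SAA1, C3, ITIH4, PTPRC, HAMP, BOLA2 and LYZ were named after their values were seen. Alternatives were DESeq2 1.42.0, its size factors, library totals, other count filters, limma 3.58.1 on log2 RPKM with a pseudocount of 1 or 0.1, a replicate block and each sample left out. Scripts were tested on simulated data. Protein sequences were not used here. One gene that the rule would name is not reported here.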

Additional observations from a re-analysis of the deposited data

How the results depend on the processing

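ACO1 kept its direction and call in all 14 alternatives, with log2 fold changes from -0.666 to -0.535. CP had a value in 13, since a minimum of 10 counts in every sample removes it. Its direction was the same in these, which follows from its choice for the largest fall and is not support for it. TFRC, SLC11A2, FTH1 and FTL kept their direction and were called in none. IREB2 changed sign with library totals (0.0826), limma on log2(RPKM + 1) (0.085) and on log2(RPKM + 0.1) (0.0985), a replicate block (0.00577) and without vector replicate 1 (0.0216), vector replicate 2 (0.133), oeRNF112 replicate 1 (0.00161) or oeRNF112 replicate 2 (0.0663), never with a call, and ranged from -0.157 to 0.133 when samples were left out. The number of genes called was 876 with a replicate block and between 1061, without vector replicate 1, and 3387, without vector replicate 2, against 2620. Called members other than CP numbered 1 with the block, under which SLC39A14 had an adjusted p of 0.118, and 1 to 2 with a sample left out. Called genes of the wider iron list numbered 10 with limma at either pseudocount, 7 with the block and between 7 and 19 with a sample left out, against 16. BMP6 was among the called genes each time, and HPX in some of these settings, although their calls are not read as results. Counting only genes past the low-count filter in both groups, an alternative chosen after seeing the data, gave 14. Copper genes called were 1 with limma on log2(RPKM + 1), 1 with the block (ATP7B, with SLC31A2 at an adjusted p of 0.0729) and between 2 and 5 with a sample left out, against 2. Same-numbered samples correlated at -0.116, -0.363 and -0.296 in their deviations from the group means, and no sample was most like its own number, so the block was not taken as a pairing. Fits with a sample left out or a block have fewer residual degrees of freedom, and the numbers called with a sample left out moved both down and up. Why the numbers differed was not tested for any alternative. Genes under about 10 counts a sample, such as HEPH, HEPHL1 and HPX, are limited by depth.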
